A study of Rattus norvegicus with 14 samples.

Results

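The fibroblast growth factor (FGF) and insulin-like growth factor (IGF) systems were examined in the lateral prostate of the rat as 41 genes: FGF ligands, FGF receptors, IGF ligands, IGF and insulin receptors, IGF binding proteins with their partner Igfals, and the IGF2 mRNA-binding proteins. The rule for members names gene symbols and uses no measured value, and it was applied to 16134 genes with a symbol among 17802 probe sets. They comprised 21 FGF ligands and homologous factors, 4 FGF receptors, 2 IGF ligands, 3 IGF and insulin receptors, 8 binding protein genes including Igfals, and 3 IGF2 mRNA-binding proteins. Fgf15 carries the name Fgf19 in the RefSeq gene table of assembly GRCr8.

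The 14 Affymetrix arrays came from male Noble rats, 48 weeks old, a strain used for hormone-induced lesions of this lobe. Each array is taken as 1 rat, although the labels do not state whether animals were pooled. The control rats (n = 4) carried empty capsules under the skin. Over 32 weeks the capsules of treated rats held 30 mg testosterone combined with 15 mg estradiol (T+E2, n = 4), with 15 mg bisphenol A (T+lowBPA, n = 3) or with 320 mg bisphenol A (T+highBPA, n = 3), the amounts being those stated for the treatment. Bisphenol A is a plastic monomer with weak estrogenic activity. All 3 treated groups received testosterone and a testosterone-only group is not analysed here, so testosterone and its partner cannot be told apart against control. The comparisons among treated groups hold testosterone fixed.

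FGFs are mostly secreted ligands that bind receptor tyrosine kinases together with heparan sulfate, and in the prostate Fgf7 and Fgf10 are known as stromal factors that act on the epithelial form of Fgfr2. Igf1 and Igf2 act on the receptor kinase Igf1r, which signals through adaptors such as Irs1, while Igf2r clears Igf2 and the binding proteins hold the ligands. The homologous factors Fgf11, Fgf12, Fgf13 and Fgf14 stay inside the cell and are known as partners of sodium channels.

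Values are log2 intensities made with RMA, so a difference of 1 is a doubling, and levels are compared only within a gene. The differences between groups were fitted with limma over all 16134 genes, and a gene is called changed where its Benjamini-Hochberg adjusted p is below 0.05. Each p-value reflects the variation among these samples alone, which may be partly technical. In whole tissue, fewer cells of a type and less RNA per cell cannot be told apart. Across genes, the correlation between arrays was 0.956 to 0.994 within control and 0.979 to 0.991 within the treated groups. Of 3 measured secretory genes listed for the lateral and dorsal lobes, Msmb lay at 12.49 to 13.20 on every array, but Tgm4 varied from 6.84 to 12.18. Control arrays read 11.17 to 12.18 for Tgm4, T+E2 arrays 8.32 to 11.96, T+lowBPA arrays 7.20 to 10.07 and T+highBPA arrays 6.84 to 10.26. The list mean was 9.73, 9.25, 8.76 and 8.62 in that order. The third listed gene, Spink3, lay at 4.11 to 5.42, with its mean at the 14th percentile of all genes. Spink3 was highest on T+E2 replicates 2 and 3 (5.42 and 5.16), where Tgm4 read 8.63 and 8.32. Control replicate 4 stood apart, with a mean correlation of 0.961 with the other controls. The mean of 6 ventral prostate secretory genes was 12.47 on that array and 7.11 to 7.50 on the other controls. Of the 6, Pbsn alone went the other way, at 12.12 on that array and 12.56 to 12.73 on the other controls. Pbsn was high on every array, at 12.12 to 13.07. For the list mean, T+E2 replicate 2 was at 12.65 and the other T+E2 arrays at 7.90 to 9.32. All 3 T+highBPA arrays were high, at 11.58, 12.74 and 10.94, whereas T+lowBPA lay at 8.38 to 8.71. Some results are therefore also given without control replicate 4, or without the 3 arrays at 12.47 or more. The latter leaves 2 T+highBPA arrays that are still high, and the part of ventral prostate tissue in the T+highBPA differences was not tested.

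In T+E2 against control, 3 of the 41 genes were called: Fgf1 and Igf1r fell and Igf2bp2 rose. This is 7.32% of the members, against 3.23% of all genes called in that comparison (1.76% higher and 1.47% lower). Another 6 members had an unadjusted p below 0.05, which brought the members to 22% against 17.9% of all genes. The arrays of 5 members did not overlap, 12.2% against 9.35% of all genes, and besides the called ones these were Fgf11 and Fgf22. Fgf1, a ligand able to activate all FGF receptors, was at 8.63, 8.86, 8.85 and 8.55 in control and at 8.19, 7.84, 8.0 and 8.11 in T+E2. Every T+E2 array lay below every control array. Thus Fgf1 fell by 0.68 on the log2 scale (95% interval -0.94 to -0.43, 1.61-fold, limma adjusted p = 0.00457).

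Igf1r, the receptor kinase for both IGF ligands, read 9.39, 9.68, 9.63 and 9.43 in control and 8.91, 8.56, 9.10 and 8.88 in T+E2. Again the groups did not overlap, and T+E2 replicate 2 was the lowest array of the series. The difference was -0.67 (interval -0.94 to -0.41, 1.59-fold, limma adjusted p = 0.00797). Igf2bp2, an RNA-binding protein known to bind the Igf2 message, went the other way, from 5.70, 5.68, 5.89 and 5.48 in control to 6.32, 5.99, 6.33 and 6.37 in T+E2. The lowest T+E2 array still exceeded the highest control. Igf2bp2 rose by 0.56 (interval 0.34 to 0.79, 1.48-fold, limma adjusted p = 0.00817). Its family members Igf2bp1 and Igf2bp3 had T+E2 means of 5.28 and 4.57 against 5.29 and 4.58 in control. With only the control and T+E2 arrays in the fit, the call of Igf2bp2 was lost (limma adjusted p = 0.0598).

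**Figure D1:**
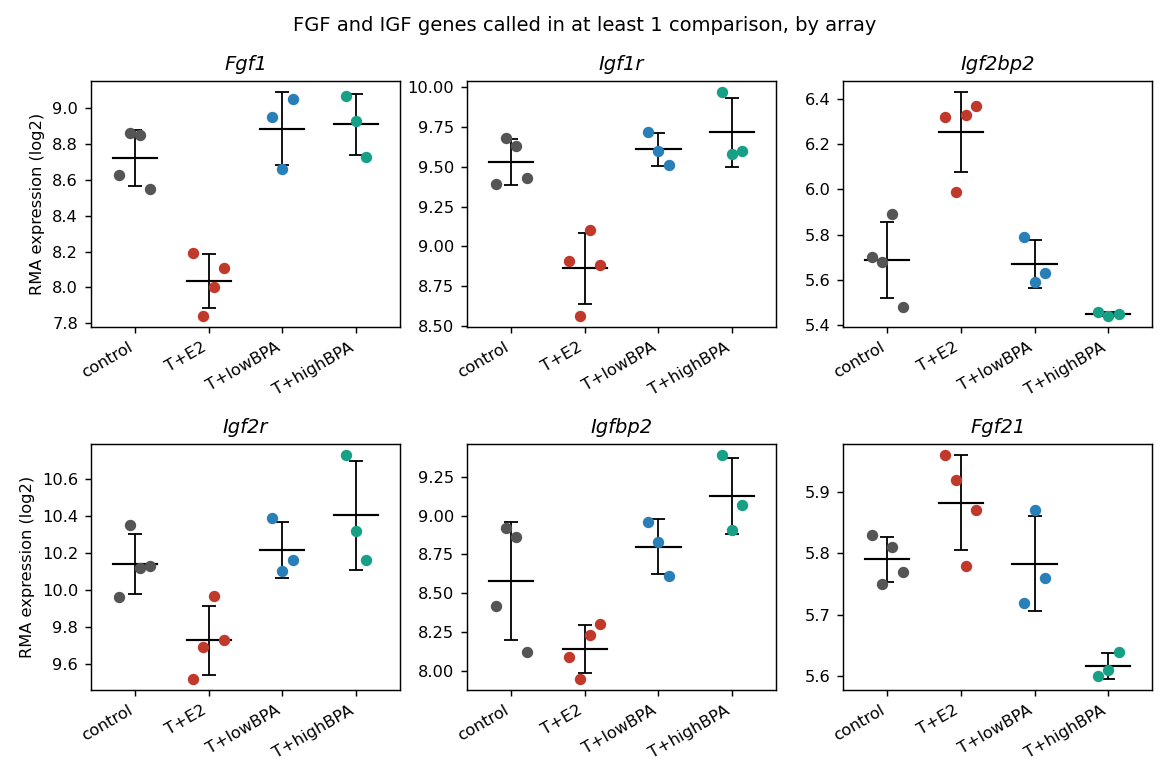
Expression of the 6 FGF and IGF genes called in at least 1 comparison, on the RMA log2 scale (vertical axis, not starting at 0), for each array (points) of the 4 groups (horizontal axis), with group mean and SD (lines and bars). Fgf1 and Igf1r are lowest and Igf2bp2 highest on all 4 T+E2 arrays, while T+highBPA arrays of Fgf21 lie at 5.60 to 5.64, below all others.

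The promoter windows of these 3 genes are shown because the genes separated T+E2 from the other groups. RefSeq windows of GRCr8 were matched for 35 of the 41 members, in 38 windows, and the 250 bases before the start are printed 5′ to 3′ in gene orientation. Of 33460 windows checked, 19334 had this start at the annotated gene start, and the check is not given for the 3 printed windows. Capitals mark a GC box (GGGCGG, either strand). The windows lie at chr18:30961394-30961643 on the minus strand for Fgf1, chr1:130959747-130959996 on the plus strand for Igf1r and chr11:92378658-92378907 on the plus strand for Igf2bp2.
Fgf1: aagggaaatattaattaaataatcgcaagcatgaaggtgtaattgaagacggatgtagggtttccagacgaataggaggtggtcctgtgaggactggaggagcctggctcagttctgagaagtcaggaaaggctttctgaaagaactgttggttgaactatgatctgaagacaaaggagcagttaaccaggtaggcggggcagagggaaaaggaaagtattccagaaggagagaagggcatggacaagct
Igf1r: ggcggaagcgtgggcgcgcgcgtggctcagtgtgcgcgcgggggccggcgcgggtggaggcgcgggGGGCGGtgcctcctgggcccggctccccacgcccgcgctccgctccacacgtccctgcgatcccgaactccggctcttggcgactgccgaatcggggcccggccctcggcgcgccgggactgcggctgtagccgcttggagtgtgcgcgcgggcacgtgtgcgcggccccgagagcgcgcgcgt
Igf2bp2: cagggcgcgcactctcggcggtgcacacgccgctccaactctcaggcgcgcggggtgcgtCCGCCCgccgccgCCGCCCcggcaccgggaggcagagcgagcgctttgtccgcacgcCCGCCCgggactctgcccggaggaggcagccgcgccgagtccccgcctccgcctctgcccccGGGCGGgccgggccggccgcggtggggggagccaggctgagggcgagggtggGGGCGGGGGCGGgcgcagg
The windows differ in base composition, with a GC content of 46% for Fgf1, 79.6% for Igf1r and 82.4% for Igf2bp2. The median was 63% over the 38 member windows and 51.2% over all 33469 windows. A GC box occurred 0 times in the Fgf1 window, 1 time in that of Igf1r and 6 times in that of Igf2bp2. It was present in 50% of member windows and 30.5% of all windows. The full estrogen response element, with arms GGTCA and TGACC 3 bases apart, was found in 0 of the 38 member windows and 0.0239% of all windows. Its single arm (GGTCA, either strand) was found in none of the 3 printed windows, in 31.6% of member windows and in 35.4% of all windows. The single arm of the androgen response element (AGAACA, either strand) was likewise in none of the 3, in 7.89% of member windows and in 17.5% of all windows. The letters TGANTCA of the AP-1 motif were in none of the 3, in 2.63% of member windows and in 6.34% of all. These matches describe the letters of the windows only.

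Among the ligands and receptors of the IGF system, Igf1 and Igf1r differed in opposite directions in T+E2, but only the receptor was called. Igf1, made largely by stromal cells, was at 11.37, 11.54, 11.20 and 10.32 in control and at 11.76, 11.52, 11.72 and 11.69 in T+E2. Control replicate 4 was the lowest array of the series, and control replicate 2 lay within the T+E2 range. The difference of 0.56 (interval 0.11 to 1.02) had a limma adjusted p of 0.179, and it was 0.30 without control replicate 4 (0.267). Igf2, the fetal IGF ligand, was at 6.21 ± 0.16 in control and 6.46 ± 0.16 in T+E2 (SD, n = 4 each, limma adjusted p = 0.295). Igf2r, which takes Igf2 to the lysosome, read 9.96, 10.35, 10.12 and 10.13 in control against 9.52, 9.69, 9.97 and 9.73 in T+E2. The ranges touched at 1 array, and the difference of -0.41 was not called (limma adjusted p = 0.119). Insr, the insulin receptor, was at 8.32 ± 0.10 and 8.32 ± 0.15 (SD), with an interval of the difference that ran from -0.24 to 0.24.

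Of the 8 binding protein genes, 0 were called in T+E2 against control, where 3.23% of all genes were, with differences from -0.44 to 0.22. Igfbp2 was the 1 with an unadjusted p below 0.05, reached by 17.9% of all genes. Igfbp2, a binding protein of epithelia, was at 8.42, 8.92, 8.86 and 8.12 in control and 8.09, 7.95, 8.23 and 8.30 in T+E2. Control replicate 4 lay inside the T+E2 range and the other controls above it. The difference of -0.44 missed the threshold (limma adjusted p = 0.187), but without control replicate 4 it was -0.59 and called (0.0396), and it was also called with array weights (0.0258). Igfbp3, the main carrier of IGFs in serum, was at 7.67 ± 0.13 in control and 7.89 ± 0.17 in T+E2, and Igfbp5, a matrix-bound member, at 9.62 ± 0.51 and 9.27 ± 0.27 (SD). Igfals, which holds the circulating complex together, had group means from 5.53 to 5.90, and Igfbp1, Igfbp4, Igfbp6 and Igfbp7 differed by -0.19 to 0.08 in T+E2.

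The stromal FGFs showed no call. Fgf7 was at 8.14, 8.66, 8.16 and 6.98 in control, 8.76, 8.18, 8.05 and 7.99 in T+E2, 7.73, 7.30 and 7.93 in T+lowBPA, and 7.67, 7.47 and 7.91 in T+highBPA. All T+E2 arrays lay above all arrays of both BPA groups, while control spanned nearly the whole range. The differences of -0.59 for T+lowBPA and -0.56 for T+highBPA from T+E2 were not called (limma adjusted p = 0.43 and 0.25), with intervals of -1.25 to 0.07 and -1.22 to 0.10. Fgf10 had means of 5.65 in control, 5.79 in T+E2, 5.86 in T+lowBPA and 5.74 in T+highBPA, and its arrays overlapped in every comparison. Fgf2, a ligand stored in the matrix, was at 6.17 ± 0.17 in control and 5.85 ± 0.14 in T+E2 (SD, limma adjusted p = 0.179).

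Fgfr2, the receptor of Fgf7 and Fgf10, is read by 1 probe set that does not tell its epithelial form apart. The mean of Fgfr2 was below control in all 3 treated groups. Fgfr2 read 7.44, 7.75, 7.74 and 7.52 in control, 7.25, 7.17, 7.33 and 7.46 in T+E2, 7.41, 7.40 and 7.34 in T+lowBPA, and 7.50, 7.16 and 7.28 in T+highBPA. T+lowBPA alone lay wholly below control, making Fgfr2 the 1 member whose arrays did not overlap there (2.44% against 8.28% of all genes). Its difference between the mean of the 3 treated groups and control was -0.28 (interval -0.46 to -0.10, unadjusted p = 0.00537), which did not pass the adjustment over all genes (limma adjusted p = 0.433). With array weights Fgfr2 was called in T+E2 (-0.35, limma adjusted p = 0.0492). Fgfr1 differed from control by 0.02, -0.09 and 0.03 in T+E2, T+lowBPA and T+highBPA. Control replicate 4 read 6.79 for Fgfr1 and the other controls 7.21, 7.58 and 7.27. The signs in T+E2 and T+highBPA rest on that array. In the unweighted limma fit to all arrays, 0 of the 4 FGF receptors were called in any comparison, against 0% to 10.2% of all genes. Fgfr2 and Fgfr3 had an unadjusted p below 0.05 in some comparisons, as did 6.41% to 27.4% of all genes.

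**Figure D2:**
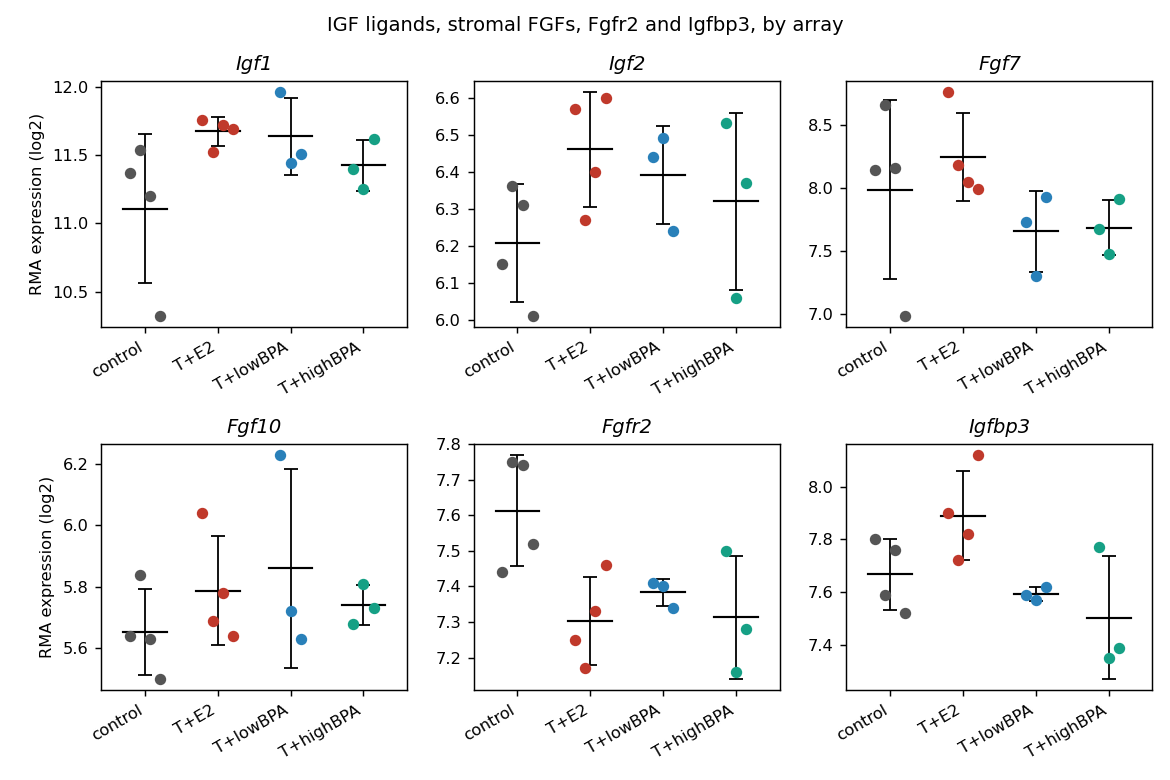
Expression of the IGF ligands, Fgf7, Fgf10, Fgfr2 and Igfbp3 on the RMA log2 scale (vertical axis, not starting at 0), for each array (points) of the 4 groups (horizontal axis), with group mean and SD (lines and bars). Control replicate 4 is the lowest array for Igf1 (10.32) and Fgf7 (6.98), and the groups overlap for Igf2 and Fgf10.

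Markers of some other cell types were also lower in T+E2 than in control, with no test made of them. The mean of 8 measured smooth muscle genes of 9 listed was at 9.16 ± 0.30 in control (8.81 to 9.44) and 8.57 ± 0.22 in T+E2 (8.30 to 8.81). That of 5 basal epithelial genes of 6 listed was at 7.42 ± 0.31 (7.09 to 7.72) and 6.78 ± 0.14 (6.57 to 6.88). The mean of 4 urothelial genes was at 7.02 ± 0.39 (6.64 to 7.44) and 6.47 ± 0.15 (6.34 to 6.66). Within that list Upk1a was at 8.41 to 9.11 and 7.13 to 7.71, and Upk1b at 5.98 to 8.43 and 5.77 to 6.51. Upk2, at 5.26 to 5.52 and 5.24 to 5.91, was not lower, and Upk3a was about level, at 6.49 to 6.99 and 6.57 to 6.95. Luminal and fibroblast means differed by less than the larger of their SDs. The mean of 6 luminal genes of 8 listed was at 8.67 ± 0.15 and 8.90 ± 0.34, and that of all 8 fibroblast genes at 8.79 ± 0.42 and 8.94 ± 0.14 (SD). Their part in the differences of Fgf1, Igf1r and Igf2bp2 was not tested. Without the 3 arrays highest in ventral prostate genes, these 3 members were still the ones called in T+E2 against control.

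**Figure D3:**
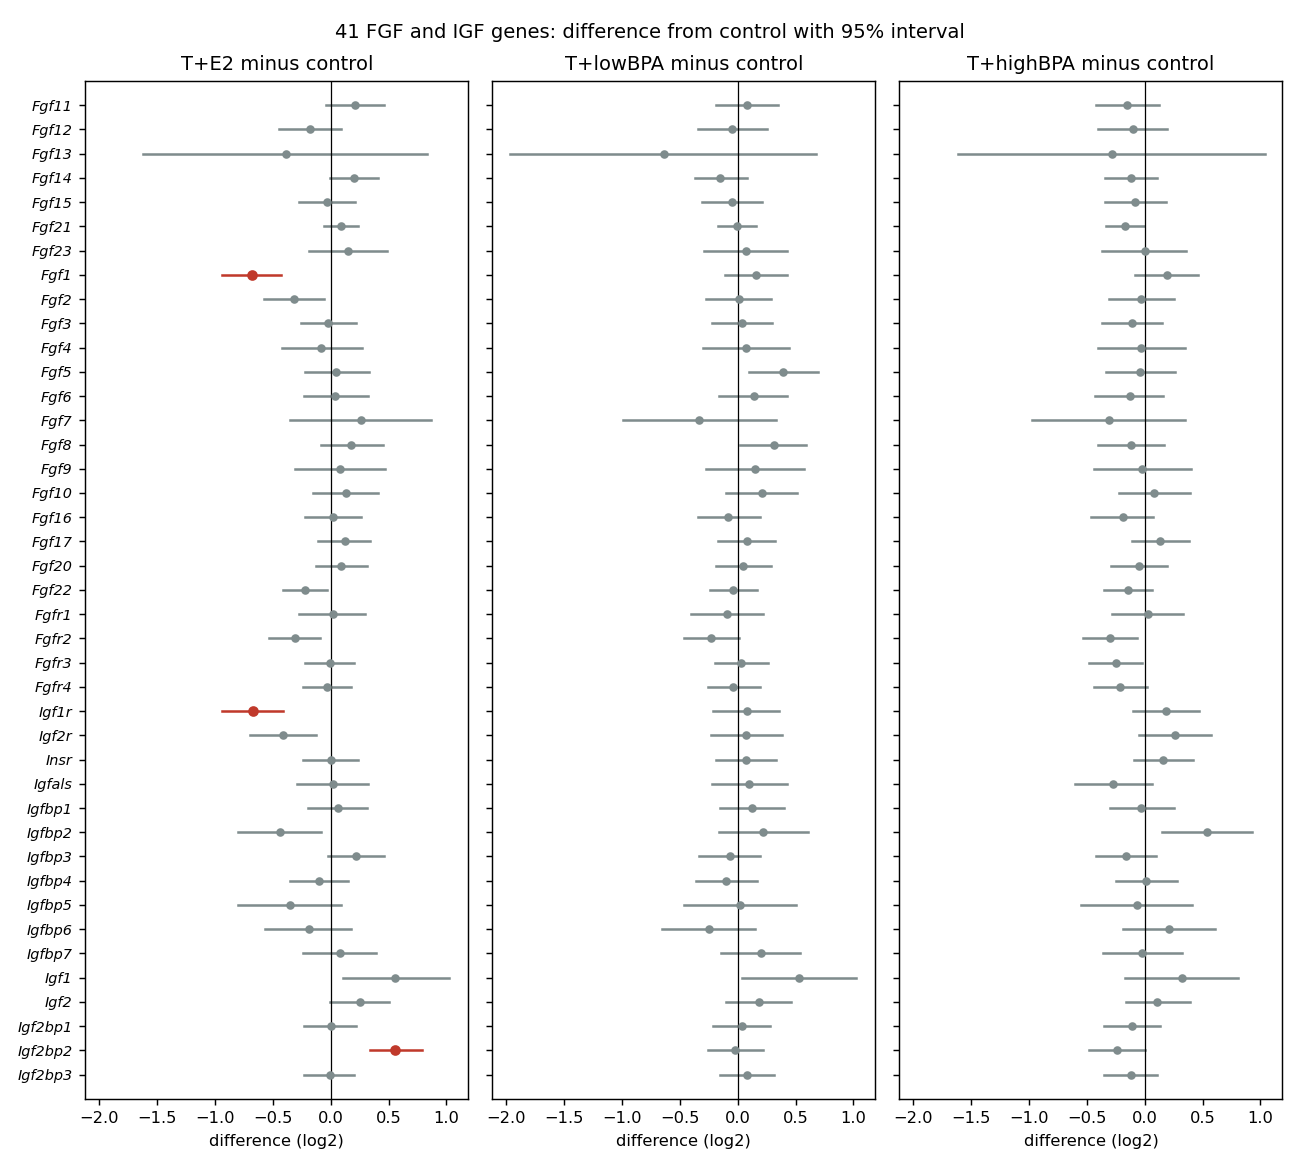
Difference from control on the log2 scale (horizontal axis) with its 95% interval for each of the 41 genes (vertical axis) in T+E2, T+lowBPA and T+highBPA. Red marks the 3 genes called, all in T+E2, and Fgf13 has the widest interval in each panel.

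Against control, neither bisphenol A group had a called member. In T+lowBPA, 0 of 41 were called with limma, against 0.0186% of all genes, and 3 members had an unadjusted p below 0.05, or 7.32% against 7.59% of all genes. These were Fgf5 (0.39, limma adjusted p = 0.538), Fgf8 (0.31) and Igf1 (0.53, both 0.634). The difference of Igf1 became 0.26 without control replicate 4. In T+highBPA, 0 of 41 were called, against 0.0062% of all genes, and 4 members had an unadjusted p below 0.05, or 9.76% against 8.64% of all genes. These were Igfbp2 with 0.54, Fgfr2 with -0.30, Fgfr3 with -0.25 and Fgf21 with -0.17 (limma adjusted p = 0.455, 0.469, 0.542 and 0.563). The arrays of 4 members did not overlap between T+highBPA and control, Fgf21, Fgfr3, Fgfr4 and Igf2bp2, each lower in T+highBPA, a share of 9.76% against 9.07% of all genes.

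Of the genes that changed in T+E2, Fgf1 and Igf1r overlapped control in both BPA groups, and Igf2bp2 did so in T+lowBPA only. Fgf1 was at 8.95, 8.66 and 9.05 in T+lowBPA and 9.07, 8.93 and 8.73 in T+highBPA. Its differences from control of 0.16 and 0.19 had intervals of -0.11 to 0.43 and -0.08 to 0.46, which leave out a fall of the size seen in T+E2. Igf1r differed from control by 0.08 (-0.21 to 0.36) in T+lowBPA and by 0.18 (-0.10 to 0.47) in T+highBPA. Igf2bp2 differed by -0.02 (-0.26 to 0.22) and by -0.24 (-0.48 to 0.00). Its T+highBPA arrays, at 5.44 to 5.46, lay below every control array, in the direction opposite to its rise in T+E2.

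With testosterone in both groups, T+lowBPA differed from T+E2 in the same 3 genes, and the T+E2 arrays are shared with the comparison against control. Of 41 members 3 were called, or 7.32% against 3.53% of all genes (1.78% higher and 1.75% lower). The arrays of 10 members did not overlap, 24.4% against 15.9% of all genes, and 9 had an unadjusted p below 0.05, 22% against 14.2%. Fgf1 was higher in T+lowBPA by 0.85 (interval 0.58 to 1.12, 1.8-fold, limma adjusted p = 0.00121) and Igf1r by 0.75 (0.46 to 1.03, adjusted p = 0.00472). Igf2bp2 had a difference of -0.58 (-0.82 to -0.34), with a limma adjusted p of 0.00863 that became 0.0533 without T+lowBPA replicate 2. Igfbp2 was higher by 0.66 with arrays that did not overlap (8.96, 8.83 and 8.61 in T+lowBPA), at a limma adjusted p of 0.0658. It was called without control replicate 4 (0.016) and without the 3 arrays highest in ventral prostate genes (0.0374).

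T+highBPA and T+E2 differed in 6 members, or 14.6% against 10.2% of all genes called there, with 4 higher (6.48% of all genes) and 2 lower (3.68%). An unadjusted p below 0.05 was seen for 12 members, 29.3% against 27.4% of all genes, and arrays that did not overlap for 11, 26.8% against 26.7%. Igf2bp2 was at 5.46, 5.44 and 5.45 in T+highBPA, lower than in T+E2 by 0.80 (limma adjusted p = 0.000668). Fgf1 was higher by 0.87 and Igf1r by 0.86 (adjusted p = 0.000826 and 0.00144). These 3 calls had the same direction as those of T+lowBPA, and both comparisons use the same T+E2 arrays.

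The IGF clearance receptor and a binding protein were called as well. Igfbp2 was at 9.39, 8.91 and 9.07 in T+highBPA, where every array lay above every T+E2 array, and was higher by 0.98 (interval 0.59 to 1.37, 1.97-fold, limma adjusted p = 0.00461). Igf2r was at 10.73, 10.32 and 10.16 in T+highBPA and higher by 0.67 (0.37 to 0.98, limma adjusted p = 0.00984). Without T+highBPA replicate 1, its highest array, the difference of Igf2r was 0.51 and no longer called (0.0526). Fgf21, an endocrine FGF best known from liver, was lower by 0.26 (limma adjusted p = 0.0408), a call lost under 15 of 25 alternatives, among them 10 of 14 single arrays left out (0.0521 to 0.19 where lost). Its level varied little, with a range of 0.37 over all 14 arrays. Igfbp3 was at 7.77, 7.35 and 7.39 in T+highBPA and overlapped T+E2, with a difference of -0.38 (limma adjusted p = 0.0577). It was called under cyclic loess (-0.49, 0.0287), quantile normalization, a setting chosen after seeing the data (0.0352), without control replicate 4 (0.0409) and without T+highBPA replicate 1 (-0.52, 0.0282).

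Igfbp2 had group means of 8.14 in T+E2, 8.58 in control, 8.80 in T+lowBPA and 9.12 in T+highBPA. Neighbours in that order were not called apart, with limma adjusted p of 0.187 for T+E2 and control, 0.812 for control and T+lowBPA, and 0.459 for both BPA groups.

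The higher and the lower bisphenol A load differed in 0 of 41 members with limma, as in 0% of all genes, and 5 members had an unadjusted p below 0.05, or 12.2% against 14% of all genes. Fgf8, an epithelial FGF, was at 6.92, 6.63 and 6.54 in T+lowBPA and 6.23, 6.22 and 6.36 in T+highBPA, and Fgf5 at 6.51, 6.24 and 6.65 against 6.07, 6.03 and 6.03. Both genes had every T+highBPA array below every T+lowBPA array, with differences of -0.43 each (limma adjusted p = 0.282 and 0.285). Fgfr3 differed by -0.28, Igfals by -0.38 and Igfbp6 by 0.46 (0.313, 0.335 and 0.338). The arrays of 10 members did not overlap, 24.4% against 25.4% of all genes. For Fgf1 the difference between doses was 0.02 with an interval of -0.26 to 0.31, and for Igf1r 0.11 with -0.20 to 0.41, so that larger differences in either direction lie outside these intervals.

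The mean of the 3 treated groups against control had 0 called members with limma (0.0372% of all genes, 0.031% higher and 0.0062% lower), and 2 had an unadjusted p below 0.05, Fgfr2 and Igf1, or 4.88% against 6.41% of all genes. Igf1 was above control by 0.47 (limma adjusted p = 0.598), and by 0.20 without control replicate 4. Over all 41 members the median difference was -0.02, against 0.00 over all genes.

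Variation within groups was of ordinary size for most members, with a median within-group SD of 0.17, the same as over all genes. Fgf13, a homologous factor, was the exception at 0.96. Control replicate 4 read 7.59, the T+highBPA array numbered 2 read 7.0 and the T+E2 array numbered 2 read 6.27, while the other 11 arrays lay at 4.52 to 5.34. The 3 arrays are those with the highest ventral prostate secretory mean (12.47 to 12.74), while T+highBPA replicates 1 and 3, at 11.58 and 10.94 for that mean, read 4.52 and 4.93. The part of ventral prostate tissue in this was not tested. No comparison called Fgf13, and its interval in T+E2 against control ran from -1.62 to 0.83.

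Control replicate 4 was also the lowest array of the series for Igf1 (10.32), Fgf7 (6.98), Fgfr1 (6.79), Igfbp4 (6.85), Igfbp7 (10.57), Igf2 (6.01), Fgf10 (5.50) and Fgf6 (4.49). Igfbp7, a vessel and stroma protein with low affinity for IGFs, was at 11.19 to 11.28 in the other controls. The fibroblast mean was 8.23 on that array and 8.74 to 9.23 on the other 13. The endothelial mean of 5 measured genes was 6.85 there and 7.22 to 7.75 elsewhere. The part of these cell types in the low values was not tested.

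**Figure D4:**
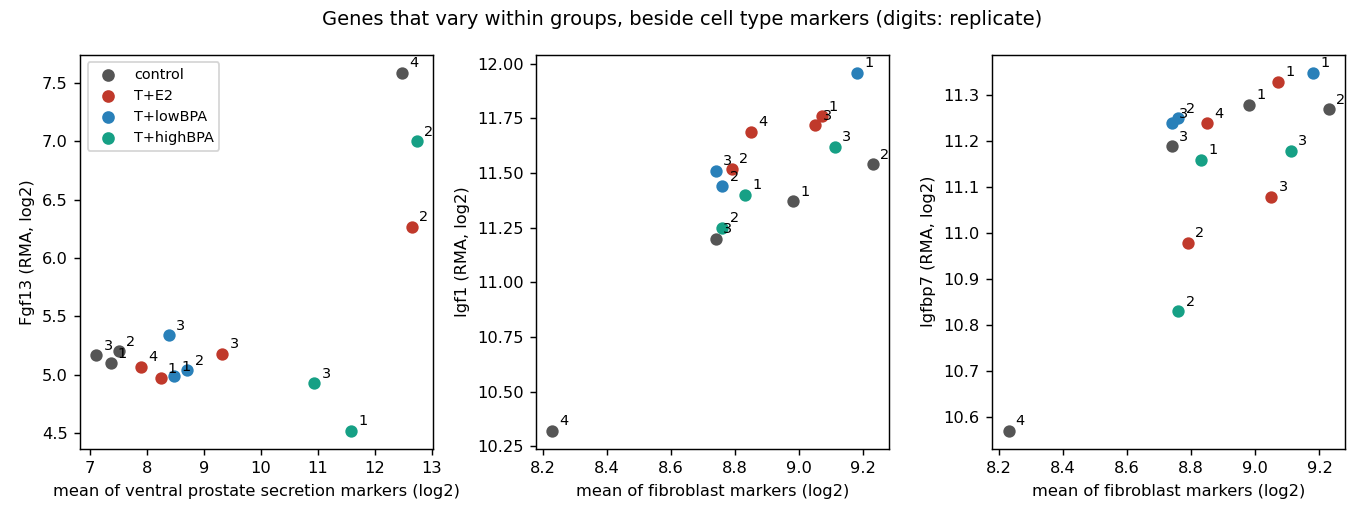
Fgf13 against the mean of 6 ventral prostate secretory genes, and Igf1 and Igfbp7 against the mean of 8 fibroblast genes, all on the RMA log2 scale, with 1 point per array coloured by group and numbered by replicate. Fgf13 is raised on the 3 arrays at 12.47 or more on the ventral axis, and control replicate 4 lies at the bottom left for Igf1 and Igfbp7.

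Of the FGF ligands and homologous factors, only Fgf1 and Fgf21 had a call in any comparison of the unweighted fit to all arrays. Among the others, Fgf3, Fgf4, Fgf6, Fgf9, Fgf16, Fgf17, Fgf20, Fgf22 and Fgf23 had ranges of 0.38 to 0.95 over the 14 arrays. The range of the called Igf2bp2 was 0.94. Of all members, 8 lay at or under 5.35, the 25th percentile of gene means, where array values compress differences: Fgf6, Fgf9, Fgf14, Fgf15, Fgf16, Fgf23, Igf2bp1 and Igf2bp3. The homologous factors Fgf11 and Fgf14 were higher in T+E2 than in T+highBPA without overlap, by 0.36 and 0.31, and neither was called (limma adjusted p = 0.0798 and 0.0729). Fgf11 was called there with array weights (0.0491), without T+lowBPA replicate 2 (0.0414) and without T+lowBPA replicate 3 (0.0484). Fgf22 had a difference of -0.22 between T+E2 and control, without overlap (limma adjusted p = 0.219).

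Downstream of the IGF receptors, 1 gene of the IGF and insulin partners changed in T+E2. Of 28 measured genes in the list, 1 was called higher and 0 lower against control, 3.57% against 3.23% of all genes, and the list median was 0.01, as over all genes. Irs1, the docking protein that couples Igf1r and Insr to phosphatidylinositol 3-kinase, was at 7.38, 7.36, 7.17 and 6.86 in control and 7.99, 8.13, 8.43 and 8.21 in T+E2. All T+E2 arrays lay above all 10 others. Irs1 rose by 1.0 (1.99-fold, limma adjusted p = 0.000485). It was lower by 0.96 in T+lowBPA and by 1.35 in T+highBPA than in T+E2 (adjusted p = 0.00109 and 6.8e-05), each time the 1 called gene of the list, 3.57% against 3.53% and 10.2% of all genes. These calls held under all 25 alternatives.

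Of 34 measured FGF partners and targets, 2 rose and 2 fell in T+E2 against control, 11.8% against 3.23% of all genes, with a list median of -0.02. Gpc3, a glypican that carries heparan sulfate and binds growth factors, was at 7.59, 7.33, 7.51 and 7.09 in control and 6.84, 6.15, 6.52 and 6.34 in T+E2, and fell by 0.92 (limma adjusted p = 0.00562). Its T+lowBPA arrays at 6.66, 6.08 and 6.16 and T+highBPA arrays at 6.65, 6.70 and 6.46 were below every control too. The mean of the 3 treated groups was below control for Gpc3, with a difference of -0.93 (limma adjusted p = 0.032), a call lost without any of 9 single arrays (0.051 to 0.111), while the T+E2 call held under all 25 alternatives.

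The syndecans Sdc2 and Sdc3, membrane carriers of heparan sulfate that serve as FGF co-receptors, rose in T+E2 by 0.77 and 0.38 (limma adjusted p = 0.0129 and 0.0446). Sdc2 was at 9.79 to 10.29 in T+E2 and at 8.68 to 9.43 on the other 10 arrays. Spry2, an inhibitor of receptor kinase signalling that FGFs induce, fell by 0.52 (limma adjusted p = 0.0385). The call of Sdc2 was lost with only the compared groups in the fit (0.0802). Those of Sdc3 and Spry2 were lost under 14 and 13 of 25 alternatives, including 11 and 9 of the 14 single arrays left out (0.0581 to 0.185 and 0.0514 to 0.121).

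In T+highBPA against T+E2, 2 FGF partners were higher and 3 lower, 14.7% against 10.2% of all genes. Spry2 was higher by 0.63 and the adaptor Grb2 by 0.67 (limma adjusted p = 0.0107 and 0.00947). Sdc2 was lower by 0.90, Flrt1, an adhesion partner of FGF receptors, by 0.38 and Sdc3 by 0.37 (0.00452, 0.0272 and 0.037). The call of Spry2 ended without T+highBPA replicate 3 (0.052), that of Flrt1 under 9 of 24 alternatives (up to 0.191) and that of Sdc3 under 9 of 25 (up to 0.12). In T+lowBPA against T+E2, 0 were higher and 3 lower, Sdc2 by 0.80, Sdc4 by 0.51 and Gpc4 by 1.02 (0.0133, 0.0463 and 0.0467), 8.82% against 3.53% of all genes. The call of Sdc2 ended without T+lowBPA replicate 2 (0.073), and those of Sdc4 and Gpc4 ended under 14 and 15 of 25 alternatives (up to 0.239 and 0.237). Against control, 0 of the 34 were called with limma in either BPA group, against 0.0186% of all genes in T+lowBPA and 0.0062% in T+highBPA. An unadjusted p below 0.05 was seen for 7.59% and 8.64% of all genes, and the share of the list is not given. The 4 listed partners with the smallest p were below 0.05 in each group. In T+lowBPA these were Gpc3 with -1.08 (limma adjusted p = 0.0666), Sdc4 with -0.33, Sulf1 with -0.28 and Sdc3 with 0.23. In T+highBPA they were Gpc3 with -0.78, Sulf1, an enzyme that trims heparan sulfate, with -0.50, Flrt1 with -0.32 and Grb2 with 0.32 (limma adjusted p = 0.288 to 0.564). Of the IGF partners, Stc2, an inhibitor of the protease that frees IGFs from a binding protein, differed by 0.31 in T+lowBPA (0.346), and Irs1 by -0.36 in T+highBPA (0.498).

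**Figure D5:**
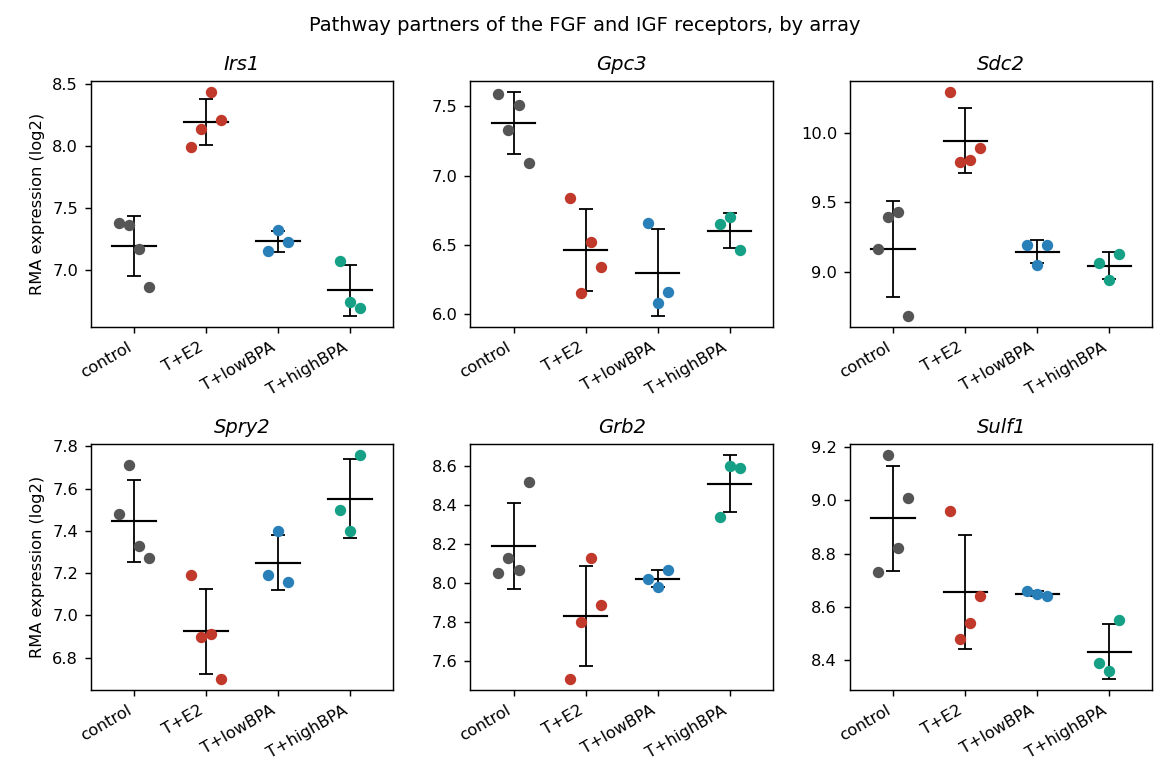
Expression of 6 partners of the FGF and IGF receptors on the RMA log2 scale (vertical axis, not starting at 0), for each array (points) of the 4 groups (horizontal axis), with group mean and SD (lines and bars). Irs1 and Sdc2 are highest on the T+E2 arrays and Gpc3 is highest in control.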

How the data were processed

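RNA of 14 lateral prostate samples was extracted with TRIzol and amplified by the Ovation Pico WTA System, per the labels' protocols. The authors deposited log2 values, and the submitters' processing notes name RMA as their source. Neither the version of RMA nor the probe set definition or build is stated in the labels used here. RMA had evened out array brightness, and array medians ran from 6.38 to 6.46. Arrays have no read depth, and their number limits the precision. Each named gene had 1 probe set, and 1668 probe sets had no gene symbol. Symbols came from the platform annotation, updated for 3107 genes through gene numbers in the RefSeq table of GRCr8.

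For the tests, limma 3.58.1 in R 4.3.3 fitted a mean for each of the groups to all 14 arrays (10 residual and 4.13 prior degrees of freedom). All 7 comparisons used two-sided tests, and p-values were adjusted over 16134 genes by the Benjamini-Hochberg method. Intervals use the moderated standard error. The fit was run on simulated data with independent noise for each gene, and the outcome is not given here. That simulation held no effect shared by the genes of an array, so it cannot speak to arrays such as control replicate 4. The gene family, the lists and the alternatives were proposed with earlier results of these data known, although the rule for members reads symbols alone. Named are members called, the 3 smallest p in each direction per comparison, the widest-ranging member of each role and 14 followed genes, and of each partner list up to 4 genes with the smallest p. Any other gene, such as Sdc3 in T+highBPA, was picked with its values in view. The 25 alternatives were dropping low values, adding unnamed probe sets, cyclic loess, median centring, fitting only the compared groups, an intensity trend, array weights, a replicate block, a threshold of 0.1, each of 14 arrays left out, and, chosen after seeing the data, quantile normalization and leaving out the 3 arrays highest in ventral prostate genes.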

Additional observations from a re-analysis of the deposited data

Results flagged for a closer look

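In groups of 4 arrays, 1 array lay far from the other 3 for 7 of 82 gene and group sets, a gap that chance gives for about 1 in 20 sets. In control, replicate 4 read 7.59 for Fgf13 against 5.10 to 5.20, and 10.57 for Igfbp7 against 11.19 to 11.28. In T+E2, replicate 2 read 6.27 for Fgf13 against 4.97 to 5.18, 3.94 for Fgf15 against 4.11 to 4.13, 7.07 for Fgfr1 against 7.27 to 7.31, and 5.99 for Igf2bp2 against 6.32 to 6.37. Without that replicate Igf2bp2 was higher in T+E2 than in control by 0.65 and stayed called. T+E2 replicate 1 read 6.32 for Fgf12 against 5.74 to 5.80. Of these 7 values, 6 come from the control and T+E2 arrays highest in ventral prostate secretory genes.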

How the results depend on the processing

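Of 12 called differences among the members, 8 held under all 25 alternatives: those of Fgf1 and Igf1r in T+E2 against each other group, of Igf2bp2 against T+highBPA and of Igfbp2 against T+highBPA. None of the 59 differences followed through the alternatives changed sign. These were the called ones and, per comparison, the 3 members with the smallest p in each direction. Other named differences were not followed. In T+E2 against control, signs that rest on control replicate 4 include those for Fgf7, Fgf13, Fgfr1 and Igfbp7. They also include those for Fgf3, Fgf4, Fgf6, Fgf9, Igf2bp1 and Igf2bp3, whose differences were -0.08 to 0.08. Called members in T+E2 against control numbered 3, and 5 with array weights (Igfbp2 and Fgfr2 added). In T+lowBPA against T+E2 they numbered 3, and 5 at a threshold of 0.1. Leaving out 1 array gave 3 to 4, 2 to 4 in T+lowBPA against T+E2, 5 to 7 in T+highBPA against T+E2, and 0 in the other 4 comparisons. The labels do not say what a replicate number marks. Deviations of same-numbered arrays correlated at -0.46 to 0.44 (median 0.17, 14 of 19 pairs above 0.1) and those of differently numbered arrays had a median of -0.02 (11 of 54 above 0.1). Since not every same-numbered pair was above 0.1, and 8 of 14 arrays correlated best with their own number, the numbers were not taken as pairs, and a partly shared structure is possible. With the replicate block the counts were 3, 3 and 5 in these comparisons and 0 elsewhere, and Fgf21 was the member lost (limma adjusted p = 0.0677). Groups of 3 and 4 arrays limit what small differences could be called. Over all genes, 521 were called in T+E2 against control, 222 with only the compared groups in the fit, 861 at a threshold of 0.1 and 1098 with array weights. T+lowBPA and T+highBPA differed from T+E2 in 569 and 1639 genes, and with array weights in 904 and 2759, the latter being 2826 at a threshold of 0.1. Against control, 3 genes were called in T+lowBPA and 1 in T+highBPA, but 31 and 235 with array weights and 35 and 25 without the 3 arrays highest in ventral prostate genes. For the mean of the treated groups, which cannot be fitted with only the compared groups, 6 genes were called, 157 with array weights and 68 without those 3 arrays. Leaving out 1 array gave 282 to 662 genes in T+E2 against control, 309 to 882 and 857 to 2493 for T+lowBPA and T+highBPA against T+E2, and 0 to 36 in the other comparisons. The cause of these shifts was not tested.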
